A study of Mus musculus with 9 samples.

Results

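The insulin-like growth factor (IGF) system was followed through 10 genes in senescent mouse fibroblasts: the ligand gene Igf1, the receptor gene Igf1r, the binding protein genes Igfbp2 to Igfbp7, and the adaptor genes Irs1 and Irs2. All 10 symbols were found among the 24062 gene symbols of the count table, and all 10 passed the filter on low counts that left 14572 genes for testing. The set was chosen by gene symbol for its function, with earlier results of these data known; its rule uses no measured value. The cells were C57BL/6 mouse embryonic fibroblasts, primary cells grown out of whole embryos. They had received a lentivirus that was empty (control), carried p21 or carried p16, and RNA was taken at day 10, with 3 libraries in each of the 3 groups. The p21 and p16 cells are described as having entered senescence by then, and the control cells also carry a senescent status label although their titles name the empty vector. The p16 libraries are annotated with other tags than the remaining 6, so a difference in handling and the effect of p16 cannot be told apart. Embryo age and vector promoter are not in the labels. Nor do they say if each replicate is its own culture, and p-values therefore cover the library-to-library spread alone.

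IGF1 is a secreted peptide that binds the receptor tyrosine kinase IGF1R and, through the docking proteins IRS1 and IRS2, turns on PI3-kinase and AKT, which drive growth and survival and keep FOXO transcription factors out of the nucleus. IGF binding proteins hold IGFs outside the cell, where they prolong their life, block their access to the receptor or, after cleavage by proteases such as PAPP-A, release them. IGFBP7 is a distant relative that binds IGFs weakly. Several IGFBPs are known components of the secretome of senescent fibroblasts.

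The family likeness of the binding proteins is a row of cysteines near the start of the mature protein. The letters below are the coding-strand bases of that stretch in the 4 members in which a search of the translated GENCODE M21 transcripts found it; they are shown because this stretch is a feature the family is known for. Capitals mark the cysteine codons, and each stretch lies in exon 1 (build GRCm38).
Igfbp2 (chr1:72824778-72824801, plus strand): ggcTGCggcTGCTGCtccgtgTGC
Igfbp3 (chr11:7213566-7213589, minus strand): ggcTGCggcTGCTGCctgactTGC
Igfbp4 (chr11:99041650-99041673, plus strand): ggcTGCggtTGTTGCgccactTGC
Igfbp5 (chr1:72873966-72873989, minus strand): ggcTGTggcTGCTGCatgactTGC
Over these 24 bases Igfbp3 and Igfbp5 shared 22, the most of any pair, and Igfbp2 and Igfbp5 shared 17, the fewest. The pattern searched, in amino acid letters with a dot for any residue, was GCGCC..C, and it was not matched in Igfbp6 or Igfbp7. It fixes the glycines (G) as well as the cysteines (C), so a miss does not show that the cysteines are absent. The longest run of identical bases shared by any pair of the 10 genes' transcripts, on either strand, was 40 bases, between Igf1r and Igfbp4. Igfbp2 and Igfbp5 are neighbours on chromosome 1, with 5457 bases between them, and Igfbp3 lies 3539 bases from Igfbp1 on chromosome 11. Igfbp1 itself had no read in any of the 9 libraries. The remaining genes lie at chr10:87858265-87937042 (Igf1), chr7:67952827-68233668 (Igf1r), chr15:102144362-102149511 (Igfbp6), chr5:77349240-77408041 (Igfbp7), chr1:82233101-82291416 (Irs1) and chr8:10984681-11008458 (Irs2).

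The upstream sequences of the 3 genes whose calls are described first below are given next, as the 250 bases before the RefSeq start site (GRCm38.p6), 5′ to 3′ on the gene's strand. Capitals mark matches, on either strand, to a TATA box (TATAAA or TATATA), a GC box (GGGCGG), a forkhead motif (GTAAACA), an E-box (CACGTG) or an AP-1 motif (TGACTCA).
Igfbp3 (chr11:7213924-7214173, minus strand): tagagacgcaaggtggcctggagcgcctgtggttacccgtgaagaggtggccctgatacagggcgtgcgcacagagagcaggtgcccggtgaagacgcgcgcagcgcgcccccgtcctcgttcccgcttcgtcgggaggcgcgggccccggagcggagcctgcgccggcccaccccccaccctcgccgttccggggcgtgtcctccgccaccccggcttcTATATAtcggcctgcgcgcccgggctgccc
Igfbp7 (chr5:77408046-77408295, minus strand): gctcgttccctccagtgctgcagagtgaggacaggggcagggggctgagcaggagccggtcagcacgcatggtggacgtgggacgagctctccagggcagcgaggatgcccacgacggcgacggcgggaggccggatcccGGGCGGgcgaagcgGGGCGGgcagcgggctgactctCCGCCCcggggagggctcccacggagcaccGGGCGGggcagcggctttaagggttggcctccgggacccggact
Irs2 (chr8:11008930-11009179, minus strand): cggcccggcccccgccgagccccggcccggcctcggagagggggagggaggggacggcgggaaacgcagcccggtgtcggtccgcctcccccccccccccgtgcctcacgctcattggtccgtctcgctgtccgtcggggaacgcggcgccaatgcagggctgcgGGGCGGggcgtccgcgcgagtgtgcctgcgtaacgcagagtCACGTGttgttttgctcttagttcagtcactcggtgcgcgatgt
The Igfbp3 window held 1 TATA box match and none of the other motifs, the Igfbp7 window 4 GC box matches, and the Irs2 window 1 GC box and 1 E-box match. Among 32851 promoter windows of the same length, 15.6% held a TATA box match, 32.7% a GC box, 3.17% the forkhead motif, 6.02% an E-box and 4.46% the AP-1 motif. No forkhead match was found in the windows of these 3 genes, which says only that those letters are not there. Their GC contents were 73.2%, 74% and 72.8%, against a median of 52.4% over all windows.

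Library totals ran from 56864342 to 76054820 counts. The vector genes read as labelled, in CPM (counts per 1000000 counted reads, after TMM scaling). Cdkn1a, which encodes p21, stood at 1085 to 1218 CPM in p21 cells against 317 to 399 CPM in control cells. Cdkn2a, which encodes p16, stood at 944.4 to 1069 CPM in p16 cells against 59.6 to 68.8 CPM in control cells. Cdkn2a also rose with p21, to 79.6 to 112.9 CPM, without overlap with control (1.52-fold, edgeR adjusted p = 0.0027). Of 12 fibroblast markers, collagen and matrix genes such as Col1a1 (10900 to 17300 CPM) were abundant in all 9 libraries, whereas Pdgfra (10.2 to 39.7 CPM), Dcn (1.56 to 5.22 CPM) and Lum (0.249 to 1.56 CPM) were low. In p21 cells 2 of the 12 were higher and 3 lower, against 19.3% and 20.7% of all genes tested. Replicate 3 of every group stood apart in Xist, the noncoding RNA that coats the silent X. In control, p21 and p16 cells replicate 3 read 396.8, 157.8 and 262.1 CPM, against at most 1.34 CPM in the other 6 libraries. The Y-linked gene Ddx3y read 1.1, 10.8 and 1.27 CPM in replicate 3 of these groups, against 50.1 to 68.5 CPM in the others. Because of that split, results of the 10 genes that change when it is allowed for are given with a replicate 3 term in the model. The term compares groups within replicates 1 and 2 and within replicate 3. It fits a shift of replicate 3 common to all groups, although the shift differed between groups for some genes. For Igfbp2, replicate 3 was 2.46-fold the geometric mean of replicates 1 and 2 in control, 1.29-fold in p21 and 1.95-fold in p16 cells. With the replicate 3 term, Cdkn1a also passed in p16 cells (edgeR adjusted p = 0.0309). The labels do not say what the replicate numbers mark.

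Levels between genes were compared per exon length, as CPM per kilobase (RPKM). In control cells Igfbp7 was the most abundant member by this measure, at 389 ± 30.6 RPKM (SD, n = 3), followed by Igfbp4 at 105.6 ± 21.4. Igfbp2 (58.5 ± 33.6) and Igfbp6 (51.1 ± 8.03) came next and did not differ beyond their spread, nor did Igfbp5 (12.5 ± 6.92) and Igf1r (12.2 ± 0.15). Irs1 (4.03 ± 0.595) lay above Irs2 (2.61 ± 0.196) and Igfbp3 (2.49 ± 0.354), and the ranges of Irs2 and Igfbp3 overlapped. Igf1 was the lowest, at 0.26 ± 0.138 RPKM. In p21 cells Igfbp3 reached 7.69 ± 0.5 RPKM and stood above Irs1 (4.12 ± 0.355), whereas Irs2 fell to 1.36 ± 0.103. In p16 cells the mean of Igfbp3 (3.58 ± 0.682) lay between those of Irs1 (4.65 ± 0.526) and Irs2 (1.75 ± 0.292). The ranges of Igfbp3 and Irs1 overlapped there.

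**Figure D1:**
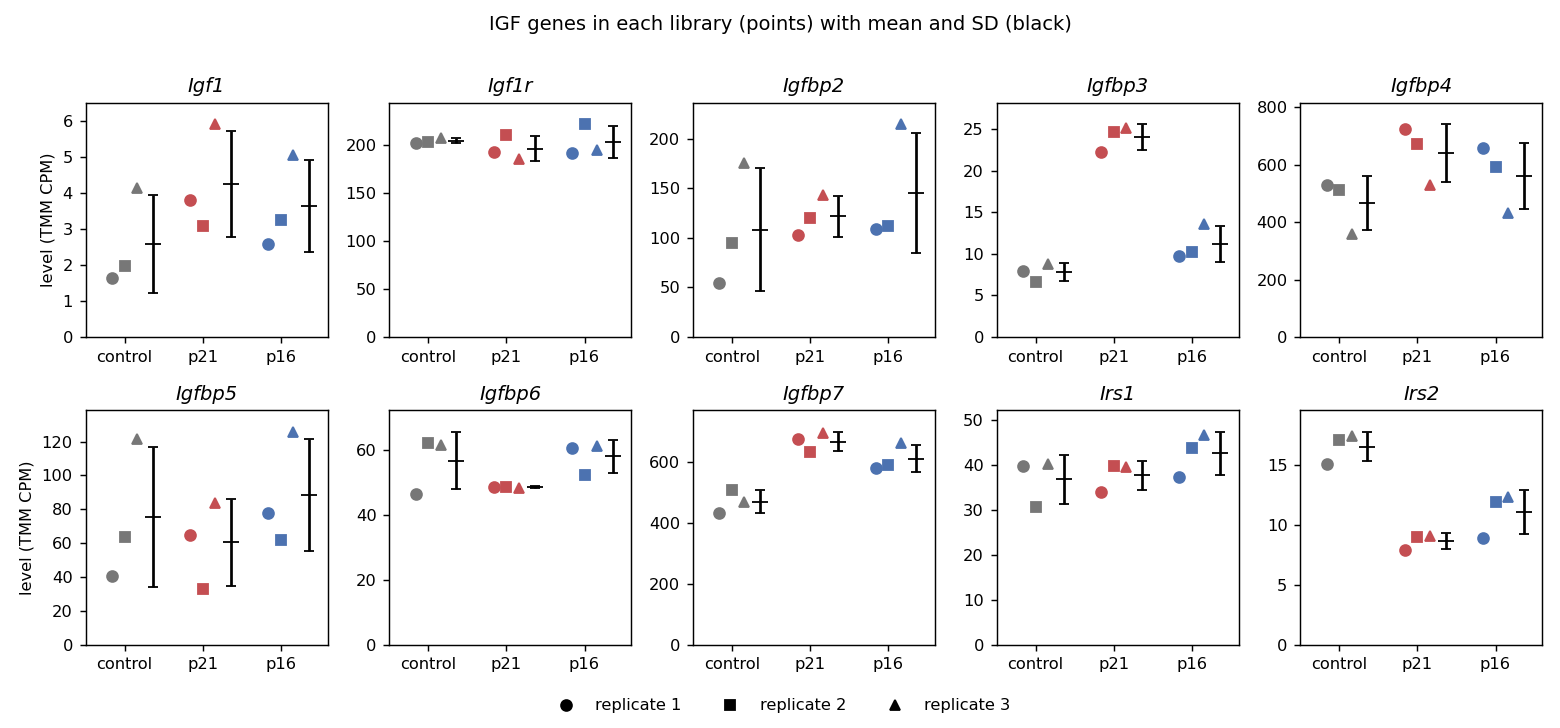
Level of each of the 10 genes in TMM-scaled CPM (y axis, from 0) in every library of the control, p21 and p16 groups (x axis). Symbols give the replicate number and the black bar the mean ± SD of 3 libraries. Igfbp3 stands at 22.3 to 25.2 CPM in p21 cells against 6.62 to 8.83 CPM in control cells, Irs2 is lowest in p21 cells, and replicate 3 is the highest library of its group for Igf1, Igfbp2 and Igfbp5.

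The first comparison asked how p21 changed these genes relative to the empty vector. Igfbp3 and Igfbp7 rose and Irs2 fell in p21 cells, so that 3 of the 10 genes passed the test, against 39.9% of all 14572 genes tested (19.3% higher and 20.7% lower). The share of members called is thus below that of genes at large, and the count says nothing particular about the IGF system. The median log2 fold change of the 10 genes was 0.10, against -0.01 over all genes. The second comparison, p16 against the empty vector, gave calls for Igfbp7 (higher) and Irs2 (lower), 2 of 10 against 7.22% of all genes (3.57% higher and 3.65% lower). Over all genes that was 520 higher and 532 lower, and 444 and 683 when library size alone set the scale; neither member's call changed. Both comparisons use the same 3 control libraries. In the third, p21 against p16, 1 of 10 passed, Igfbp3, against 12.8% of all genes (6.19% higher and 6.64% lower). These calls use edgeR's quasi-likelihood test with Benjamini-Hochberg adjustment over all genes and a threshold of 0.05.

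**Figure D2:**
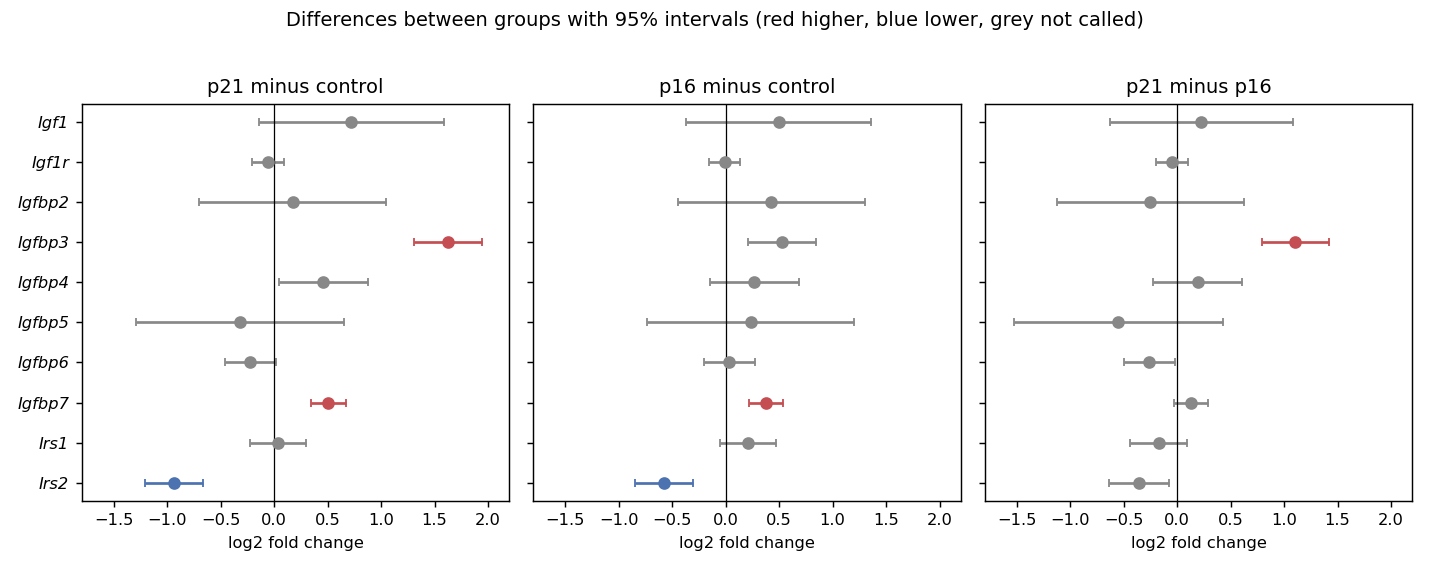
Log2 fold change (x axis) of the 10 genes (y axis) in the 3 comparisons, with 95% intervals from edgeR's quasi-likelihood fit. Red points were higher and blue points lower at an adjusted p under 0.05; grey points were not called. Igfbp3, at 1.63, and Irs2, at -0.94, are the farthest from 0 in the p21 comparison, and Igf1, Igfbp2 and Igfbp5 have the widest intervals.

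Igf1, the ligand, was expressed at a low level, with 125 to 347 counts per library. It read 1.63, 1.96 and 4.14 CPM in control replicates 1 to 3, 3.79, 3.07 and 5.9 CPM in p21 cells and 2.59, 3.24 and 5.04 CPM in p16 cells. Replicate 3 was the highest library in each group, and the groups overlapped because control replicate 3 lay above p21 replicates 1 and 2. The gene did not pass in p21 cells (1.65-fold, log2 fold change 0.72 ± 0.386 SE, adjusted p = 0.167) or in p16 cells (log2 fold change 0.50, adjusted p = 0.482). With the replicate 3 term it was higher with p21 (0.77 ± 0.151 SE on the log2 scale, adjusted p = 0.00132) and with p16 (0.54 ± 0.152 SE, adjusted p = 0.0315); that fit called 50.3% and 18.2% of all genes. From replicates 1 and 2 alone the values were 0.94 (adjusted p = 0.00662) and 0.71 (adjusted p = 0.0867), and replicate 3 alone gave 1.42-fold and 1.22-fold. Without control replicate 3 the p21 difference also passed (log2 fold change 1.24, adjusted p = 0.0211). Between p21 and p16 cells Igf1 differed by 0.22 on the log2 scale, with a 95% interval from -0.63 to 1.08.

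Macrophages are a known source of IGF1, and their markers moved with p21. Of 14 macrophage markers listed, 13 were in the table, none at 0 in all libraries, and 8 of the 11 tested were higher in p21 cells, against 19.3% of all genes. In p16 cells 0 of the 11 were higher, against 3.57% of all genes. The summed level of these markers was 25.5 to 45.6 CPM in p21 cells, 13.4 to 15.9 CPM in control cells and 11 to 14.7 CPM in p16 cells. Lyz2 was the largest part of the sum in p21 cells, at 12.3 to 23.3 CPM, whereas Cd14 read 2.23 to 2.97 CPM there and 2.48 to 3.26 CPM in control cells. Ptprc, the pan-leukocyte surface gene, stood at no more than 0.91 CPM in any library. It read 0.599 to 0.91 CPM in p21 cells, 0.195 to 0.326 CPM in control cells and 0.229 to 0.44 CPM in p16 cells. Skeletal muscle markers summed to 492 to 596 CPM in p21 cells, 348 to 367 CPM in p16 cells and 177 to 217 CPM in control cells, with 2 of 4 tested higher in each comparison with control. Nearly all of that sum was Des (77 to 231 CPM) and Acta1 (98.9 to 395 CPM); Myf5 was at 0, and Myod1, Myog, Myh3 and Pax7 did not exceed 0.0581 CPM in any library. Pericyte and smooth muscle markers summed to 6770 to 8920 CPM in p21 cells, 6760 to 7070 CPM in p16 cells and 5900 to 6480 CPM in control cells, with 3 of 7 higher with p21 and 2 of 7 with p16. Cartilage and bone markers went the other way with p21, at 449 to 696 CPM against 745 to 1440 CPM in control cells and 680 to 1140 CPM in p16 cells. Of 6 tested, 1 was higher and 2 lower with p21, against 19.3% and 20.7% of all genes, and 0 were called with p16. Col2a1 was most of that sum and was highest in replicate 3 of each group (610 to 1310 CPM). The part of any of these cell types in the values of the IGF genes was not tested. In bulk RNA, fewer cells of a type and less RNA per cell cannot be told apart.

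Igf1r, which encodes the receptor, had the smallest SE of the 10 genes in each comparison. Control libraries read 202.1, 203.5 and 207 CPM, p21 libraries 193.1, 210.2 and 185 CPM, and p16 libraries 191.6, 221.6 and 195.2 CPM. The groups overlapped in every comparison. The 95% interval of the p21 difference ran from 0.867- to 1.06-fold of control (adjusted p = 0.508) and that of the p16 difference from 0.897- to 1.1-fold (adjusted p = 0.947).

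Igfbp3, the main carrier of IGFs in plasma and also a p53 target gene, changed most of the 10 in p21 cells. It read 7.93, 6.62 and 8.83 CPM in control libraries, 22.3, 24.7 and 25.2 CPM in p21 libraries and 9.72, 10.2 and 13.7 CPM in p16 libraries. Every p21 library lay above every other library, and every p16 library above every control library. Of all genes, 49.8% lacked overlap between p21 and control, 28.7% between p16 and control and 36.0% between p21 and p16. The p16 difference was 1.44-fold and missed the threshold (log2 fold change 0.52 ± 0.142 SE, adjusted p = 0.05395). With the replicate 3 term it passed (0.52 ± 0.0943 SE, adjusted p = 0.00446), as it did with DESeq2 (adjusted p = 0.00555). Between p21 and p16 cells the difference was 2.15-fold (log2 fold change 1.1 ± 0.14 SE, adjusted p = 0.0018). The p21 difference from control was 3.09-fold (log2 fold change 1.63 ± 0.142 SE, adjusted p = 3.94e-05), and this log2 value ranged from 1.52 to 1.73 when any single library was left out.

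Igfbp7, the most abundant member per exon length, rose in both. Control libraries read 433.4, 507.5 and 470.1 CPM, p21 libraries 675.8, 632.4 and 695.6 CPM and p16 libraries 581.5, 589.2 and 663.3 CPM. No library of either overexpressing group overlapped with control, a pattern that 49.8% of genes showed for p21 and 28.7% for p16. The rise was 1.42-fold with p21 (log2 value 0.51 ± 0.0722 SE, adjusted p = 0.000564) and 1.3-fold with p16 (0.38 ± 0.0721 SE, adjusted p = 0.0183). Removing p16 replicate 2 (adjusted p = 0.0568) or p16 replicate 3 (adjusted p = 0.0522) ended the p16 call, as did a fit from replicates 1 and 2 alone (adjusted p = 0.0597). The levels in p21 and p16 cells overlapped, and the difference between them did not pass (1.09-fold, 95% interval 0.977 to 1.22, adjusted p = 0.279).

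Igfbp4, the binding protein whose cleavage by PAPP-A frees IGF near the cell surface, showed the reverse replicate pattern to Igf1. It read 529.5, 511.7 and 357.6 CPM in control cells, 723.4, 671.4 and 528.8 CPM in p21 cells and 658, 594.1 and 433 CPM in p16 cells. Replicate 3 was the lowest library in each group, so the groups overlapped. The p21 difference was 1.38-fold and did not pass (log2 fold change 0.46 ± 0.187 SE, adjusted p = 0.0767). With the replicate 3 term nearly the same difference passed (0.47 ± 0.0527 SE, adjusted p = 2.78e-05), as it did from replicates 1 and 2 alone (0.43, adjusted p = 0.00184), with DESeq2 (adjusted p = 0.0218), without p21 replicate 3 (adjusted p = 0.0422) and without p16 replicate 3 (adjusted p = 0.0441). In p16 cells the log2 fold change was 0.27 ± 0.187 SE (adjusted p = 0.423), and 0.27 ± 0.0526 SE with the replicate 3 term (adjusted p = 0.00623). That term also put Igfbp4 higher in p21 than in p16 cells (0.20 ± 0.0526 SE, adjusted p = 0.0175), a comparison in which it called 24.9% of all genes.

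Igfbp2 and Igfbp5, the tail-to-tail neighbours on chromosome 1, varied more between replicates than between groups. Igfbp2 read 54, 94.3 and 175.7 CPM in control cells, 102.4, 119.5 and 143.1 CPM in p21 cells and 108.3, 112.2 and 214.5 CPM in p16 cells. Igfbp5 read 40.8, 63.7 and 121.4 CPM in control cells, 64.6, 33 and 83.8 CPM in p21 cells and 77.8, 61.9 and 125.8 CPM in p16 cells. For both genes replicate 3 was the highest library of each group; in control cells it was 2.46-fold and 2.38-fold above the geometric mean of replicates 1 and 2. Neither gene passed in any comparison, and the intervals are wide: for Igfbp2 the p21 difference lay between 0.614- and 2.06-fold (adjusted p = 0.754), and for Igfbp5 between 0.409- and 1.57-fold (adjusted p = 0.592). With the replicate 3 term they did not pass either (adjusted p = 0.229 and 0.366 for p21, 0.115 and 0.394 for p16).

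Igfbp6, which prefers IGF2 over IGF1, read 46.6, 62.2 and 61.8 CPM in control cells, 48.8, 48.7 and 48.3 CPM in p21 cells and 60.8, 52.3 and 61.5 CPM in p16 cells. The 3 p21 libraries were nearly alike and lay below all p16 libraries and below control replicates 2 and 3, but above control replicate 1. The p21 difference from control did not pass (1.17-fold lower, adjusted p = 0.119). Without control replicate 1 it did, at a log2 fold change of -0.35 (adjusted p = 0.00398). The difference between p21 and p16 cells was 1.2-fold (adjusted p = 0.14); 36.0% of all genes showed such a lack of overlap there. It passed without control replicate 1 (adjusted p = 0.0235) or when only those groups were fitted (adjusted p = 0.0397).

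Summed over the 6 binding protein genes, the level was 1185 ± 67.6 CPM in control cells, 1564 ± 63.6 CPM in p21 cells and 1476 ± 49.1 CPM in p16 cells. The lowest p21 library (1525 CPM) and the lowest p16 library (1420 CPM) lay above the highest control library (1246 CPM). The ratio to control was 1.32 for p21 and 1.25 for p16, and 1.33 and 1.26 per exon length. No test was made of this sum. Per exon length, Igfbp7 made up 62.9 ± 2.12% of the binding protein transcripts in control cells, 66.9 ± 1.55% in p21 cells and 64.7 ± 1.16% in p16 cells. In CPM, without division by length, its share in control cells was 39.7 ± 0.927%, level with that of Igfbp4 at 39.5 ± 8.95%. The shares that follow are again per exon length. Igfbp3 made up 0.405 ± 0.0714%, 0.933 ± 0.0754% and 0.455 ± 0.0556%, so the gene with the largest fold change remained a minor part of the pool. Igfbp2 took 14.8% in control replicate 3 against 5.23% in control replicate 1, whereas Igfbp4 took 12.6% against 21.5%.

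**Figure D3:**
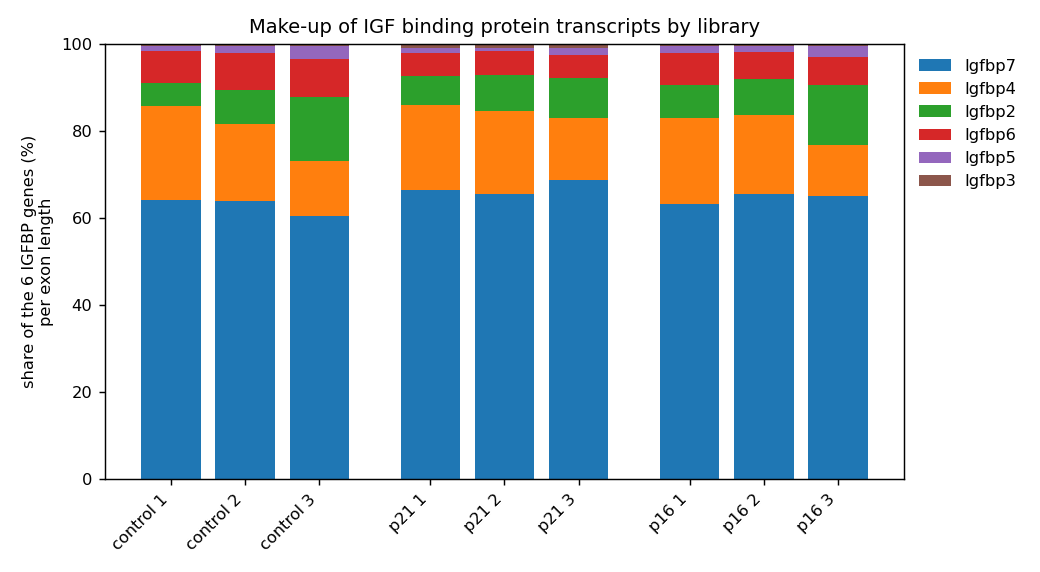
Share of the 6 IGF binding protein genes' transcripts, as RPKM in percent of their sum (y axis), in each of the 9 libraries (x axis). Colours mark the genes. Igfbp7 makes up 60.4% to 68.7% in every library, and in replicate 3 of each group Igfbp4 takes a smaller share than in replicates 1 and 2.

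Irs2, which encodes one of the adaptors, fell in both groups. It read 15.1, 17.1 and 17.4 CPM in control cells, 7.86, 8.95 and 9.03 CPM in p21 cells and 8.92, 11.9 and 12.3 CPM in p16 cells. All p21 and p16 libraries lay below all control libraries. Of all genes, 49.8% lacked overlap with control in p21 cells and 28.7% in p16 cells. The fall was 1.92-fold with p21 (log2 value -0.94 ± 0.123 SE, adjusted p = 0.000351) and 1.5-fold with p16 (-0.58 ± 0.122 SE, adjusted p = 0.0237). The p21 call held in every alternative run, including the removal of any 1 library. With p16, the call ended on removal of control replicate 2 (adjusted p = 0.0827), control replicate 3 (0.0573), p16 replicate 1 (0.0581) or p16 replicate 2 (0.0727), and when only p16 and control libraries were fitted (0.0585). The p21 and p16 libraries overlapped, with p16 replicate 1 below p21 replicates 2 and 3, and their difference did not pass (1.28-fold lower in p21 cells, adjusted p = 0.0878). It passed with the replicate 3 term (adjusted p = 0.0313), with DESeq2 (adjusted p = 0.0453) and without p16 replicate 1 (adjusted p = 0.0279).

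Irs1 read 39.7, 30.5 and 40.2 CPM in control cells, 34, 39.7 and 39.4 CPM in p21 cells and 37.2, 43.8 and 46.6 CPM in p16 cells, and the groups overlapped. The 95% interval of its p21 difference ran from 0.852- to 1.23-fold (adjusted p = 0.841). In p16 cells it was 1.16-fold (adjusted p = 0.315). GENCODE M21 places 2822 exonic bases of Irs1 under the opposite-strand gene Gm9747. Igfbp7 shares 85 such bases with Polr2b, and Irs2 162 with 9530052E02Rik. The library kit does not mark strand, so reads there cannot be assigned to one partner.

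**Figure D4:**
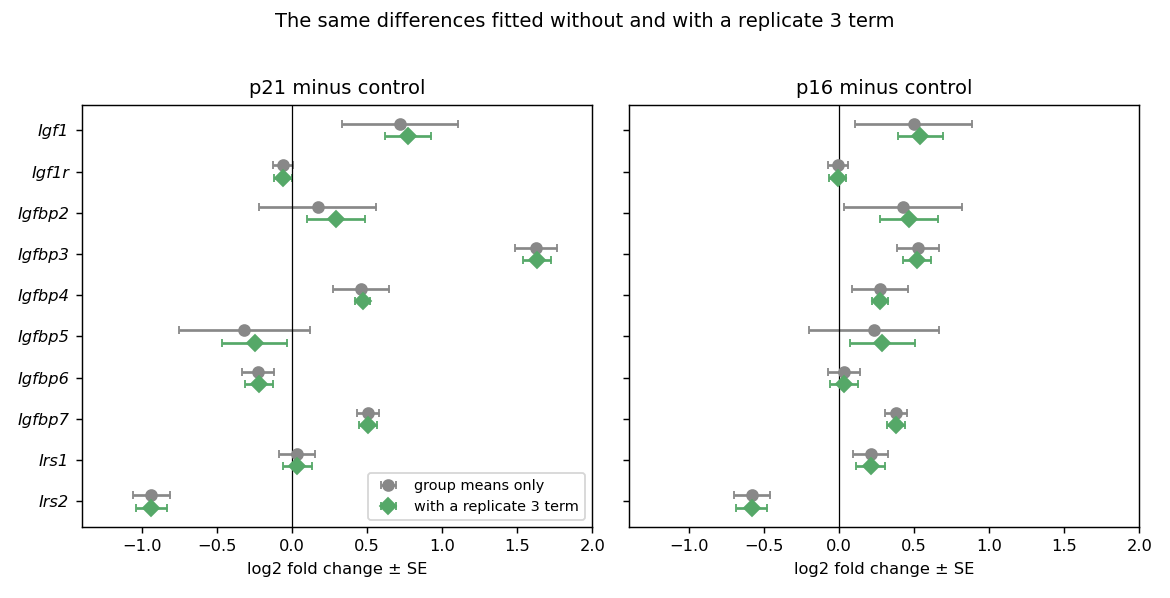
Log2 fold change ± SE (x axis) of the 10 genes (y axis) for p21 and p16 against control, from the fit of group means only (grey circles) and with a replicate 3 term (green diamonds). The estimates move little, by at most 0.12, while the SE of Igf1, Igfbp2, Igfbp4 and Igfbp5 narrows, for Igfbp4 in p21 cells from 0.187 to 0.0527.

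Replicate 3 also stood apart in Igf2, the other IGF ligand, which shares an imprinted domain with the noncoding gene H19. Igf2 read 201.6, 307.3 and 502.9 CPM in control cells, 198.4, 265.7 and 465.2 CPM in p21 cells and 197.2, 255.2 and 419.3 CPM in p16 cells. It was thus far more abundant than Igf1 in every library, and did not pass in p21 (adjusted p = 0.828) or p16 cells (adjusted p = 0.796). The Igf2 level in replicate 3 was 2.02-fold the geometric mean of replicates 1 and 2 in control cells, 2.03-fold in p21 cells and 1.87-fold in p16 cells. For Igf1 those ratios were 2.31, 1.73 and 1.74, for Igfbp5 2.38, 1.82 and 1.81, and for Igfbp4 0.687, 0.759 and 0.693.

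Beyond the 10 genes, 88 other genes of the pathway had been listed by role, and 80 of them were tested. In p21 cells 16 were higher and 17 lower, 33 of 80, with a median log2 fold change of -0.02; over all genes 39.9% were called. In p16 cells 4 were higher and 1 lower, against 7.22% of all genes. Both insulin genes, Ins1 and Ins2, had no read in any library.

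Among proteases of the binding proteins, Pappa and Htra1 rose in both groups. Pappa, which encodes the PAPP-A protease of IGFBP4, read 79.3, 110.7 and 127.5 CPM in control cells, 209.4, 186 and 263.9 CPM in p21 cells and 166.7, 190.3 and 224.2 CPM in p16 cells. It had no overlap with control, like 49.8% of all genes for p21 and 28.7% for p16. Its rise was 2.08-fold with p21 (log2 value 1.05 ± 0.184 SE, adjusted p = 0.00172) and 1.83-fold with p16 (0.87 ± 0.184 SE, adjusted p = 0.0239). With p16, the call ended on removal of control replicate 2 (adjusted p = 0.0696), p16 replicate 1 (0.0507), p16 replicate 2 (0.0846) or p16 replicate 3 (0.0729). Htra1, a secreted serine protease gene, read 167.2, 204 and 172.1 CPM in control cells, 311.2, 318.8 and 326.4 CPM in p21 cells and 245.8, 252.7 and 261.2 CPM in p16 cells. Its rise was 1.76-fold in p21 cells (adjusted p = 3.94e-05) and 1.4-fold in p16 cells (adjusted p = 0.00774).

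Of the receptors, Igf2r, which carries IGF2 to the lysosome, rose 1.23-fold in p21 cells, from 372.1 ± 36.7 to 459.2 ± 15.7 CPM (SD, n = 3, edgeR adjusted p = 0.0106). It did not pass in p16 cells (1.09-fold, adjusted p = 0.377). The insulin receptor gene Insr did not pass in p21 (1.11-fold, adjusted p = 0.129) or p16 cells (1.03-fold, adjusted p = 0.795).

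Inside the cell, Pik3r3, a regulatory subunit gene of PI3-kinase, rose in both groups: 25 to 26.5 CPM in control libraries, 38 to 40.6 CPM in p21 libraries (1.54-fold, adjusted p = 3.62e-05) and 33.1 to 36.2 CPM in p16 libraries (1.38-fold, adjusted p = 0.00363). Pik3r2, another regulatory subunit gene, rose in p21 cells (1.25-fold, adjusted p = 0.000868) but had a log2 fold change of 0.0044 in p16 cells (adjusted p = 0.971); the p21 to p16 difference itself passed (1.25-fold, adjusted p = 0.00438) with any 1 library left out. Pik3cd, a catalytic subunit gene better known from leukocytes, was 1.49-fold lower in p21 cells (adjusted p = 0.00159), and the adaptor gene Shc1 1.21-fold higher (adjusted p = 0.0021). In p16 cells Pik3cd was 1.28-fold lower and missed the threshold (edgeR adjusted p = 0.0557), but it passed with the replicate 3 term (edgeR adjusted p = 0.0205). Stat5a, a transcription factor gene of the growth hormone arm, was 1.25-fold lower in p16 cells (adjusted p = 0.0215) and 1.2-fold lower in p21 cells (adjusted p = 0.0121). The p16 call for Stat5a was lost without control replicates 2 or 3 or any single p16 replicate, at adjusted p from 0.0524 to 0.1.

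Of the FOXO target genes listed, 11 were tested, and in p21 cells 4 were higher and 1 lower, against 19.3% and 20.7% of all genes. Ccng2, an atypical cyclin gene, rose 1.55-fold in p21 cells (adjusted p = 0.000206) and 1.32-fold in p16 cells (adjusted p = 0.0176), the latter call being lost without p16 replicate 1 (adjusted p = 0.0579) or p16 replicate 2 (adjusted p = 0.0716). Cdkn1b, which encodes the CDK inhibitor p27, fell 1.78-fold in p21 cells, from 27.8 ± 3.13 to 15.7 ± 1.74 CPM (SD, n = 3, edgeR adjusted p = 0.000361). In p16 cells it was 1.25-fold lower than in control cells and did not pass (edgeR adjusted p = 0.106). With the replicate 3 term that p16 difference passed (edgeR adjusted p = 0.0027).

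Between p21 and p16 cells, 5 of the 80 genes were higher and 3 lower in p21, against 12.8% of all genes. Besides Pik3r2, the calls included Htra1 (1.26-fold higher, adjusted p = 0.0166), Akt1s1, which encodes an mTOR inhibitor (1.22-fold higher, adjusted p = 0.0251), and Shc1 (1.15-fold higher, adjusted p = 0.0262). Lower in p21 were Cdkn1b (1.43-fold, adjusted p = 0.0168) and Phlpp1, which encodes an AKT phosphatase (1.15-fold, adjusted p = 0.0322). Each of these 5 calls was lost on leaving out single libraries: 3 of the 9 libraries for Cdkn1b, 4 for Htra1 and Akt1s1 and 6 for Shc1 and Phlpp1, at adjusted p from 0.0506 to 0.136. The Cdkn1b call was lost without p21 replicate 1 or 2 or p16 replicate 3, the Htra1 call without p21 or p16 replicate 1 or 2, and the Akt1s1 call without p21 replicate 1 or 2 or p16 replicate 1 or 3. For Shc1 they were control replicate 2, p21 replicates 1 and 2 and every p16 replicate, and for Phlpp1 control replicate 2, every p21 replicate and p16 replicates 2 and 3.

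**Figure D5:**
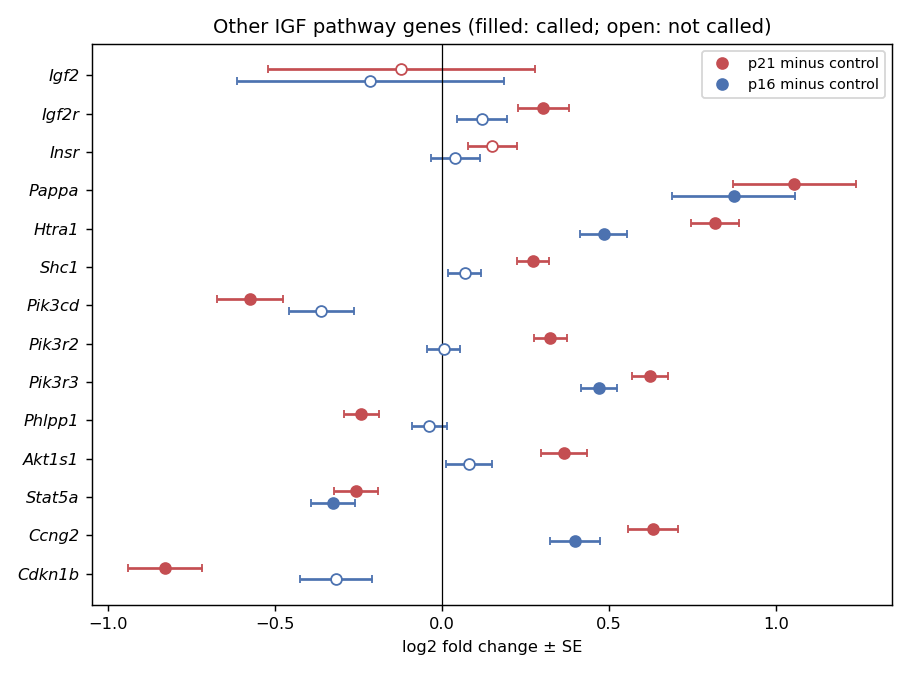
Log2 fold change ± SE (x axis) of 14 other genes of the IGF pathway (y axis) in p21 (red) and p16 cells (blue) against the same 3 control libraries. Filled points passed at an adjusted p under 0.05 and open points did not. Pappa and Htra1 lie farthest to the right and Cdkn1b farthest to the left.

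The likeness of expression profiles was read from the root mean square difference between centred log2 CPM profiles over the 9 libraries, against 10445 genes whose mean log2 CPM reached 2. Closest to Igfbp3 were Ctsf (0.236), Atp9a (0.237), Hist1h2bc (0.244) and Aox1 (0.245). Closest to Igfbp7 were Zfyve1 (0.0551), Trp53inp2 (0.0553), Tspan3 (0.0637) and Ifngr2 (0.0664). All these profiles share the libraries and their group differences, and no test was made.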

How the data were processed

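The authors deposited raw read counts per gene symbol for 9 libraries, not normalised. The submitters' processing notes list build mm10 and the tools featureCounts 1.4.6, Subread, Bowtie2 2.2.6 and TopHat2 2.0.14. Which annotation, strand setting and treatment of multi-mapped reads went into the counts is not stated there. Genes with a count of 2 outnumbered those with a count of 1 by 2.76 to 3.6 times in each library, so some molecules may be counted as 2 reads.

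Groups and replicate numbers came from the sample titles. Counts were tested with edgeR 4.0.16 (R 4.3.3): filterByExpr, TMM, 1 fit of the 3 group means to all 9 libraries, quasi-likelihood F test, Benjamini-Hochberg adjustment over 14572 genes, threshold 0.05. SE is the log2 fold change over the root of F. Library pairs within a group differed beyond sampling noise (chi-square per degree of freedom 10.4 to 101). Alternatives were edgeR's RLE factors, library size alone, no filter, a replicate block, a replicate 3 term, replicates 1 and 2 alone, the compared groups alone, DESeq2 1.42.0, and leaving out each library.

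Same-numbered libraries' deviations correlated at 0.183, 0.0253 and 0.489 (p21, control), 0.251, 0.109 and 0.545 (p16, control) and 0.159, 0.287 and 0.478 (p21, p16). As not all exceeded 0.1, numbers were not taken as pairs. Lengths and positions are from GENCODE M21 (GRCm38, also called mm10). Members, lists and rules were chosen with earlier results of these data known. All members are named; of the other pathway genes, up to 8 called genes per comparison by lowest adjusted p, with non-overlapping groups and a mean log2 CPM reaching 2, plus Igf2, Igf2r, Insr and Pappa. One gene that this rule names is not reported here.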

Additional observations from a re-analysis of the deposited data

How the results depend on the processing

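In p21 against control, the calls of Igfbp3, Igfbp7 and Irs2 kept their direction and passed under all alternatives run. The count of members called (3) became 5 with a replicate block, with the replicate 3 term and from replicates 1 and 2 alone. In p16 against control the count (2) became 5 with a replicate block and with the replicate 3 term, and 1 from replicates 1 and 2 alone or with only these groups fitted. In p21 against p16 (1) it became 3 with a replicate block and with the replicate 3 term, and 2 with only these groups fitted or with DESeq2. Leaving out single libraries gave 3 to 4, 0 to 2 and 1 to 2 members. For the other pathway genes, p16 against control (5) gave 14 with the replicate block and 11 with the replicate 3 term, and p21 against p16 (8) gave 20 and 18; leaving out single libraries gave 19 to 37 (33 with all), 2 to 7 and 1 to 11. The cause of these shifts was not tested. Over all genes, p16 against control (1052) gave 2473 with the replicate block, 2645 with the replicate 3 term, 593 from replicates 1 and 2 alone, 555 with only these groups fitted and 1808 with DESeq2, and p21 against p16 (1870) gave 3496 and 3622 with the block and the term. Leaving out single libraries gave 222 to 949 genes for p16 against control, the count being 375 without control replicate 2 and 284, 222 and 425 without p16 replicates 1, 2 and 3. For p21 against p16 it gave 600 to 2464, being 600 and 922 without p21 replicates 1 and 2, and 789, 875 and 959 without p16 replicates 1, 2 and 3. The shares of all genes called in these comparisons move with these counts. With the replicate block, Igf2 passed in p16 cells (log2 fold change -0.19 ± 0.0521 SE, edgeR adjusted p = 0.0322) and Insr in p21 cells (0.15 ± 0.0544 SE, edgeR adjusted p = 0.0359). Signs of uncalled genes that turned were Irs1 in p21 (log2 fold change -0.0016 by library size alone), Igf1r in p16 (0.0313) and Igfbp2 in p21 against p16 (0.0082), both from replicates 1 and 2 alone. With single libraries left out, signs also turned in p21 against control for Igfbp2 (-0.15 to 0.72), Igfbp5 (-0.62 to 0.21), Irs1 (-0.0824 to 0.11) and Igf2 (-0.54 to 0.29); in p16 against control for Igf1r (-0.0728 to 0.0342), Igfbp5 (-0.11 to 0.77), Igfbp6 (-0.0904 to 0.11), Igf2 (-0.57 to 0.20) and Insr (-0.0299 to 0.10); and in p21 against p16 for Igf1 (-0.0859 to 0.54), Igf1r (-0.10 to 0.0203), Igfbp2 (-0.43 to 0.14) and Igf2 (-0.33 to 0.45). The summed binding protein ratios moved by less than their spread. Whether the replicate numbers pair the samples is not given by the labels. Each group has only 3 libraries.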
